A study of Mus musculus with 6 samples.

Results

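The genes that build, attach and remodel glycosylphosphatidylinositol (GPI), the lipid-linked sugar chain by which many proteins without a transmembrane segment are held at the plasma membrane, were examined together with a set of proteins that carry it. Members were taken by symbol: every mouse gene named *Pig* plus a single letter except *Pigr*, the genes *Gpaa1*, *Pgap1*, *Pgap2*, *Pgap3*, *Mppe1*, *Dpm1*, *Dpm2* and *Dpm3*, and 12 anchored proteins. Of the 40 annotated genes this names, 35 are among the 11234 genes listed in all 6 libraries, 27 for synthesis, attachment or remodelling and 8 for anchored proteins. *Pigz*, *Cd59a*, *Gpc3*, *Thy1* and *Nt5e* are not listed and were not analysed here.

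The cells were MC3T3-E1, a preosteoblast line from mouse skull bone, of the C57BL/6 strain and at passage 4. Both groups spent 24 h in serum-free medium, after which 3 samples received complete medium with 100 μmol/L cyanidin-3-O-glucoside (C3G, a plant pigment of the anthocyanin class) for 24 h and 3 control samples received complete medium without it. The study calls the controls vehicle-treated without naming a vehicle. Whether the replicates came from separate cultures or days is not stated, so p values measure the spread between these samples, which may be technical. Expression is given as FPKM, a fragment count scaled to the length of the gene model and to the mapped fragments of the library, so levels can be compared between genes, and values of a gene are listed in the order of replicates 1, 2 and 3. Depth behind each value is unknown. Differences are on the log2(FPKM + 1) scale, which understates changes of genes with low FPKM, and a gene was called in these data at an unadjusted limma p under 0.05 with a fold change of at least 1.2, the thresholds the study states.

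The anchor is assembled on phosphatidylinositol in the endoplasmic reticulum. An N-acetylglucosamine is added on the cytosolic side and deacetylated, mannoses donated by dolichol-phosphate-mannose and ethanolamine phosphates follow on the luminal side, and a transamidase swaps the finished glycolipid for the C-terminal signal of a protein. Lipid and glycan are then trimmed on the way to the surface, where anchored proteins include glypicans, Ly6 proteins and the prion protein.

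The sequences before the start sites of *Pigc* and *Pigb* are shown because both genes were called and RefSeq promoter windows (GRCm38.p6) hold them. Each run is the 250 bases before the start site, 5′ to 3′ on the strand of the gene, with capitals for the letters CCGGAAG on either strand, the core that ETS-family transcription factors bind. The *Pigc* window is chr1:161968938-161969187 on the plus strand and the *Pigb* window is chr9:73039700-73039949 on the minus strand. The start site is that of RefSeq, and for *Pigb* the GENCODE gene model used elsewhere (73007419 to 73040378) begins upstream of it, so this window lies within that model.
Pigc: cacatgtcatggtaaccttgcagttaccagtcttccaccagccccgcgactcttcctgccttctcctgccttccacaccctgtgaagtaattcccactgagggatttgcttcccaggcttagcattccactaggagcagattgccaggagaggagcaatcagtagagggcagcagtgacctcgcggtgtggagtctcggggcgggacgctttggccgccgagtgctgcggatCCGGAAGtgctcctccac
Pigb: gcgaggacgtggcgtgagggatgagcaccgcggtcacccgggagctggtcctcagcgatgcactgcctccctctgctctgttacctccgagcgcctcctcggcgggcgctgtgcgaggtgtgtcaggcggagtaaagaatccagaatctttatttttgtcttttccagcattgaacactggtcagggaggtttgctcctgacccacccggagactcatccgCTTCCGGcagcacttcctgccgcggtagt

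The core begins 18 bases before the start site in *Pigc* and, on the opposite strand, 29 bases before it in *Pigb*. Windows were held for 26 of the 35 genes, with *Pigk* and *Ly6e* not among them. The core occurred in 7 of the 26 (26.9%: *Pigb*, *Pigc*, *Pigo*, *Dpm1*, *Pigf*, *Pigh* and *Pigt*), in 16.8% of the 8801 listed genes with a window and in 7.83% of all 27025 genes with one. Other letters searched on both strands were GGGCGG (a GC box, 57.7% of the 26 genes and 65.6% of listed genes), CCAAT (38.5% and 41.6%), TATAAA (15.4% and 7.51%) and CACGTG (an E-box, 11.5% and 10.1%), with shares over all windows of 35.4%, 37.5%, 14.3% and 6.86% in that order. No string here contains another on either strand. The ETS core was chosen for display after the sequences had been seen. These matches describe sequence, not binding.

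The libraries differed before any comparison of groups. Median FPKM over all genes was 5.80 in control replicate 1 and 6.93 to 7.40 in the other 5, and 71 genes were at 0 in control replicate 1 against 9 to 18 elsewhere, though none of the 35 members was at 0 in any library. Control replicate 1 stood apart from control replicates 2 and 3 in a way that followed transcript GC content (rho of Spearman 0.748 across 11211 genes, which are not independent replicates), and C3G replicate 1 did so from its group in the same direction (rho 0.631). Of 9 preosteoblast markers 8 are listed, with *Col1a1* at 923 to 4432 FPKM, and *Ibsp* is not. *Sp7*, counted among the 8, had only 0.237 to 0.857 FPKM and stood at percentile 2.38 of all listed genes by control level. None of 5 endothelial and none of 5 adipocyte markers is listed, whereas 3 of 5 chondrocyte markers (*Sox9* at 48.2 to 106 FPKM) and 2 of 7 macrophage and osteoclast markers (*Cd68* and *Ctsk*) are. None of these 13 listed markers was called. Summed over its listed markers, the preosteoblast list ran from 2486 to 7584 FPKM in control cells and from 2512 to 3453 FPKM in treated cells. The chondrocyte list ran from 92.8 to 213.5 and from 88.5 to 113.5, and the macrophage and osteoclast list from 16.7 to 35.6 and from 32.6 to 34.04. Control replicate 1 alone gave the 7584, the 213.5 and the 16.7. Its *Col1a1* was at 4432 FPKM, against 942 and 1221 in control replicates 2 and 3. The part of these sums in the results was not tested. In RNA from whole cultures, a change in the share of cells of a type and a change of RNA per cell cannot be told apart.

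The 35 genes spanned from 0.751 FPKM (*Pigb*, mean of the 6 libraries) to 128 FPKM (*Prnp*, the prion protein). By control level, *Prnp* stood at percentile 97.3 of all listed genes, *Gpc1* at 93.6 and *Pigs* at 92.6, and *Pigb* at 1.09. *Prnp* ran from 80.5 to 149 FPKM and exceeded every other member in every library, and *Pigb* lay under every other member except *Pgap1* within each library. *Prnp* was the only gene whose lowest library exceeded the highest of the next gene in the order, and all other neighbours had overlapping ranges. The subunits of the transamidase differed in level, with *Pigs* at 49.4 FPKM, *Pigt* at 22.4, *Gpaa1* at 12.5, *Pigk* (the catalytic subunit) at 5.41 and *Pigu* at 3.42. Among the subunits of the N-acetylglucosamine transferase the means were closer, from 2.27 FPKM for *Piga*, its catalytic subunit, to 6.72 for *Pigp*.

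**Figure D1:**
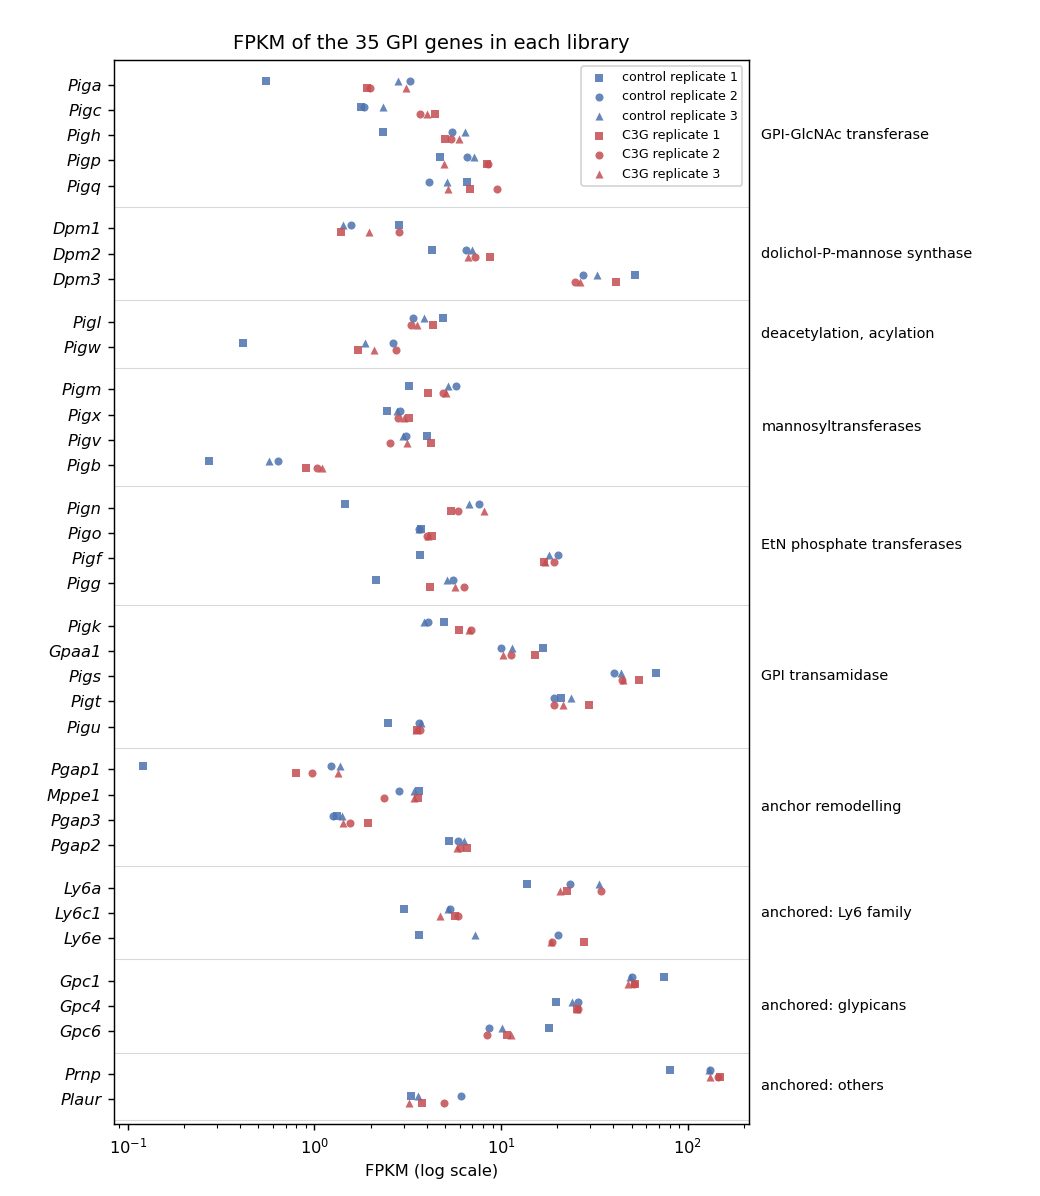
FPKM (log scale, x axis) of the 35 listed genes in each library, ordered by role (right), with controls in blue, C3G-treated cells in red, and squares, circles and triangles for replicates 1, 2 and 3. Control replicate 1 (blue square) lies apart from the other libraries in many genes, such as *Pgap1* at 0.121 FPKM and *Pigf* at 3.69 FPKM.

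Compared to control cells, C3G-treated cells had higher expression of *Pigc*, *Pigk*, *Pigb* and *Ly6e*, and no member was called lower. The ratio of mean FPKM was 2.04 for *Pigc*, 1.53 for *Pigk*, 2.04 for *Pigb* and 2.095 for *Ly6e*, whose groups overlapped. Thus 4 of the 35 members (11.4%) were called higher, against 0.401% of all genes in that direction, and 0 were called lower, against 0.249%. The members were chosen with earlier results of these data known, and *Pigc*, *Pigk* and *Ly6a* are among genes that the study singled out in these samples, so this share is not independent evidence. *Pigb* is also listed only through its treated group (control mean 0.494 FPKM, below the 0.50 FPKM that every listed gene reaches in a group), so its presence among the 35 depended on its being high there, and the count is a description only. Without *Pigc* and *Pigk* the genes called higher were *Pigb* and *Ly6e*. After Benjamini-Hochberg adjustment over all 11234 genes, limma called 0 genes, against 74 with an unadjusted p under 0.05, 4 of them members. The adjusted p was 0.992 for each of the 4. The 73 genes called were 45 higher and 28 lower, and became 30 each under quantile scaling and 67 against 68 after correction for GC content. With the replicate number as a block 169 genes were called, 0.89% of all genes as higher, and the members called were *Pigb*, *Pigc* and *Pigk*.

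*Pigc* encodes a membrane subunit of the N-acetylglucosamine transferase that starts the pathway. The 3 control values were 1.76, 1.85 and 2.33 FPKM, and the 3 treated values were 4.41, 3.70 and 4.03 FPKM. Every treated library lay above every control library, and the lowest treated value exceeded the highest control value by more than the SD of either group (0.304 and 0.356, n = 3). The difference was 0.76 on the log2 scale (95% interval 0.39 to 1.13, limma p = 0.00183, exact permutation p = 0.1, the smallest that 3 against 3 can give). It was called in 15 of 15 alternatives, between 0.60 and 1.00, and the lowest value came with correction for GC content, where limma gave an unadjusted p of 0.0319 and the groups overlapped. Exons of *Gm38304* overlap those of *Pigc* (chromosome 1, 161969186 to 161973435, plus strand, GRCm38) on the same strand.

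*Pigk* encodes the protease-like subunit of the transamidase that cuts the C-terminal signal of the protein. The gene lies on the plus strand of chromosome 3 (152714100 to 152980408), with exons of *St6galnac5* opposite. Untreated cells had 4.94, 4.04 and 3.86 FPKM, whereas C3G-treated cells had 5.96, 6.92 and 6.76 FPKM. The groups did not overlap, and the closest values were those of the replicate 1 libraries. *Pigk* was higher by 0.52 on the log2 scale (95% interval 0.13 to 0.90, limma p = 0.0154, exact permutation p = 0.1), and by 0.66 without replicate 1 in both groups (unadjusted limma p of 0.000552, adjusted p = 0.310). The difference stayed between 0.44 and 0.50, but missed the threshold at a limma p of 0.0523 to 0.0648, with quantile normalization, median centring, the GC correction with the block, and without control replicate 2, control replicate 3, C3G replicate 2 or C3G replicate 3.

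*Pigb* encodes the mannosyltransferase that adds the third mannose. It was measured at 0.272, 0.638 and 0.571 FPKM without C3G and at 0.899, 1.03 and 1.10 FPKM with it, so the groups did not overlap. Control replicate 1 was the lowest library, and without it the difference on the log2 scale went from 0.43 (95% interval 0.10 to 0.77, limma p = 0.0182, exact permutation p = 0.1) to 0.32 (unadjusted limma p of 0.0226). Of 14 alternatives that gave it a value, 12 called it. The exceptions left out C3G replicate 2 (limma p of 0.0551) or C3G replicate 3 (limma p of 0.0617). Every listed gene has a mean of at least 0.50 FPKM in a group, and *Pigb* is the only member listed through 1 group alone, with 0.494 ± 0.194 FPKM in control and 1.01 ± 0.1003 FPKM in treated cells (SD, n = 3). It lies on the minus strand of chromosome 9 (73007419 to 73040378), and its exons overlap *Ccpg1*, *2310009A05Rik* and *Gm44503* on the opposite strand. How the authors assigned reads by strand is not given in the sources used here.

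*Ly6e*, a GPI-anchored Ly6 protein known as an interferon-inducible gene, had the largest difference of the 35 and an interval narrower only than that of *Pigf*. The controls held 3.61, 20.1 and 7.24 FPKM, the treated cells 27.7, 18.8 and 18.4 FPKM. Control replicate 2 lay above treated replicates 2 and 3, so the groups overlapped, and control replicates 1 and 3 lay below all treated libraries. The difference of 1.26 on the log2 scale (95% interval 0.00 to 2.51) just passed the threshold (limma p = 0.0494, exact permutation p = 0.3). It no longer passed in 11 of 15 alternatives, among them the replicate block (unadjusted limma p of 0.0619) and the fit without replicate 1 in both groups, where it was 0.57 (limma p of 0.237). Leaving out control replicate 1 gave 0.75 and leaving out control replicate 2 gave 1.85.

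**Figure D2:**
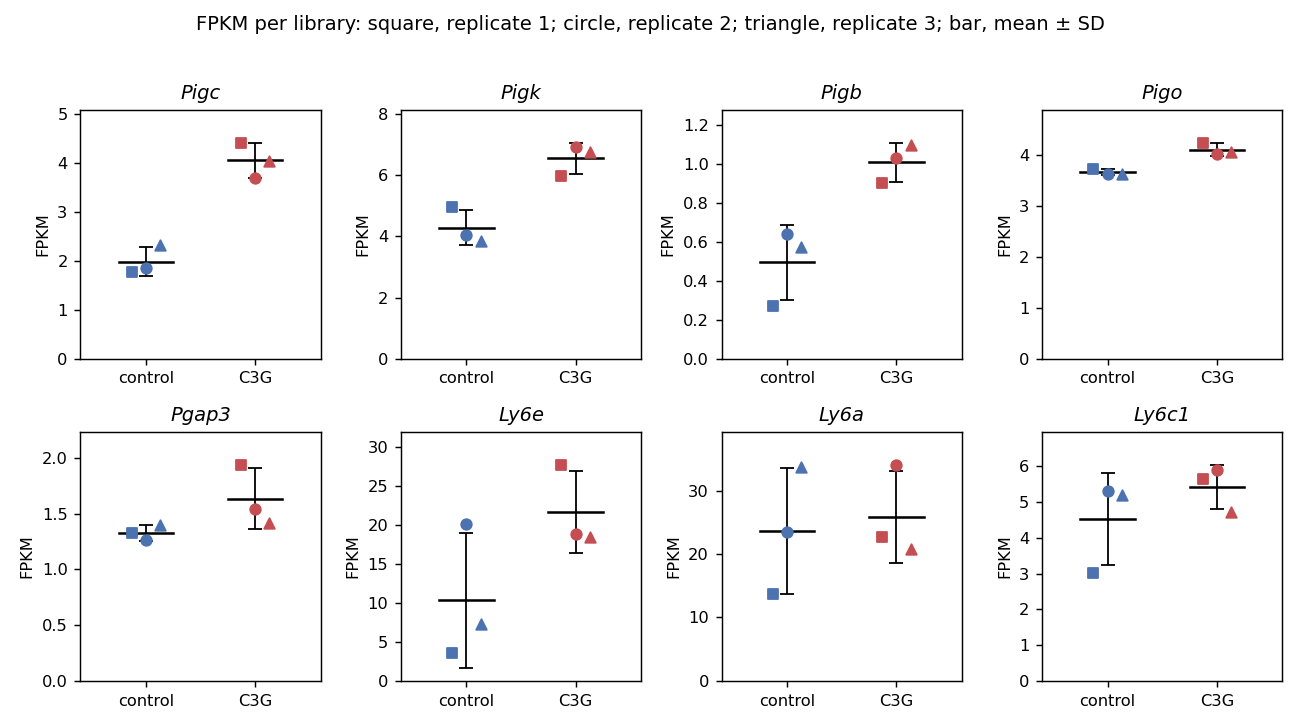
FPKM (y axis, linear from 0) of 8 genes in control (blue) and C3G-treated (red) cells, with 1 symbol per library and bars for mean ± SD (n = 3). The groups are apart in *Pigc*, *Pigk*, *Pigb*, *Pigo* and *Pgap3*, and overlap in *Ly6e*, *Ly6a* and *Ly6c1*.

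**Figure D3:**
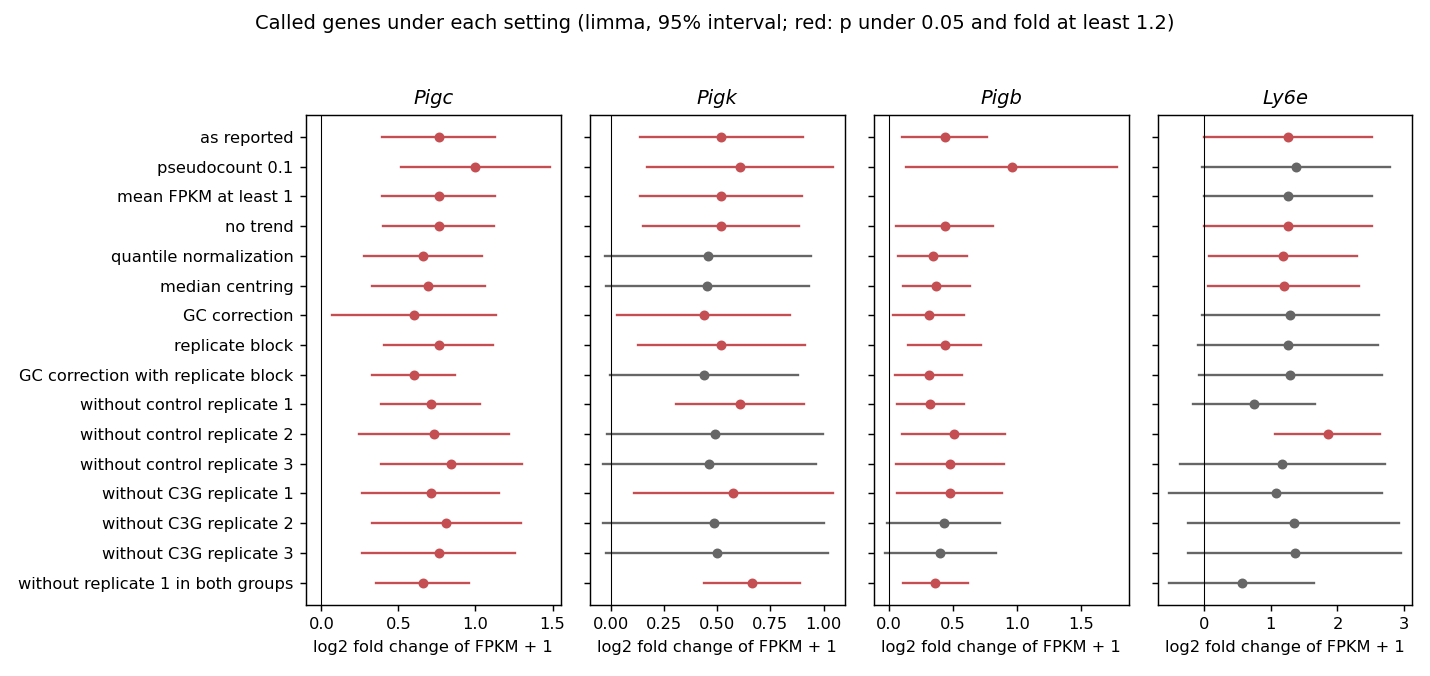
Differences (x axis, log2 of FPKM + 1, or of FPKM + 0.1 where so named, with 95% intervals) of the called genes as reported and under each alternative (y axis), in red where p was under 0.05 and the fold at least 1.2. *Pigc* is red throughout, *Pigk* and *Pigb* in most settings and *Ly6e* in few, and *Pigb* has no value where genes with a mean FPKM under 1 were left out.

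The groups did not overlap in 5 members, all higher with C3G (14.3%), against 2.55% of all genes in that direction and 1.48% in the other. This count too is a description only, since it holds *Pigb*, listed through its treated group, and *Pigc* and *Pigk*, without which it was 3 of 33 (9.09%). Besides *Pigc*, *Pigk* and *Pigb* these were *Pigo* and *Pgap3*, neither of which was called. *Pigo*, which transfers the ethanolamine phosphate that later links the anchor to the protein, had 3.73, 3.62 and 3.63 FPKM in control cells and 4.25, 4.03 and 4.06 FPKM in treated cells. Relative to their mean, its control values were the tightest of all members, and the log2 difference was 0.13 (95% interval -0.20 to 0.46, limma p = 0.371, exact permutation p = 0.1). *Pgap3*, which removes a fatty acid of the anchor in the Golgi, had 1.32, 1.26 and 1.401 FPKM against 1.94, 1.54 and 1.41 FPKM, so that the groups were separated by the narrow gap between control replicate 3 and C3G replicate 3. Its difference was 0.17 (95% interval -0.15 to 0.50, limma p = 0.250, exact permutation p = 0.1). After the GC correction the groups were apart, with higher values after C3G, in 3 members and in 3.12% of all genes, the members being *Pgap3*, *Pigb* and *Prnp*.

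**Figure D4:**
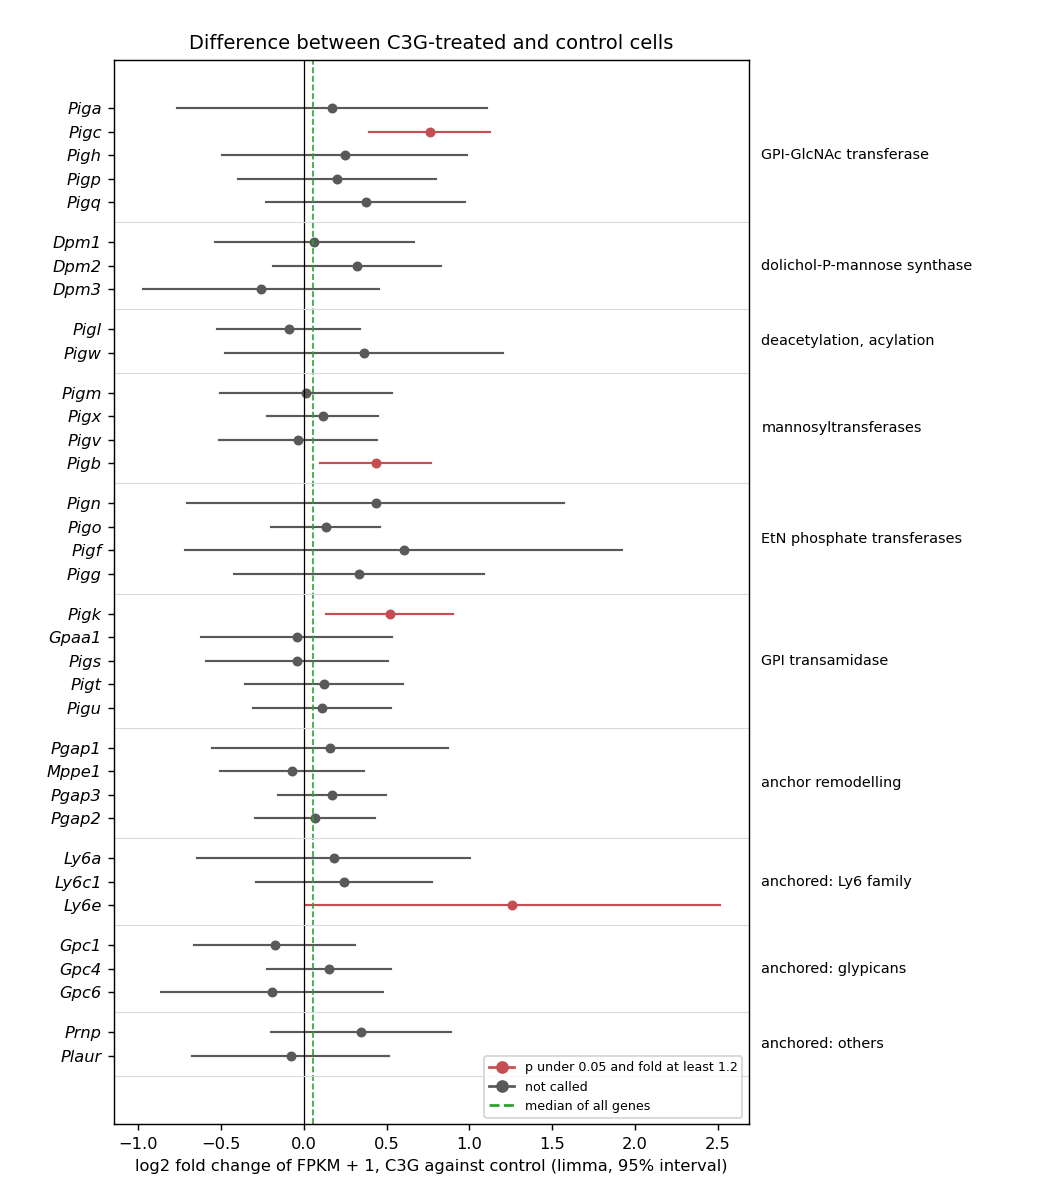
Difference between C3G-treated and control cells (x axis, log2 of FPKM + 1, limma estimate with its 95% interval) for the 35 genes by role, with called genes in red and the median of all genes (0.06) as a dashed line. *Pigc*, *Pigb*, *Pigk* and *Ly6e* have intervals above 0, and the intervals of the other 31 include 0.

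The other subunits of the N-acetylglucosamine transferase did not pass the test. *Piga* had 0.549, 3.24 and 2.81 FPKM without and 1.92, 1.99 and 3.09 FPKM with C3G, so control replicate 1 lay far below the other libraries. *Pigh*, which holds *Piga* in the complex, had 2.32, 5.48 and 6.41 FPKM against 4.99, 5.39 and 5.94 FPKM. The largest difference among these was that of *Pigq*, at 0.37 (95% interval -0.23 to 0.98, limma p = 0.184, exact permutation p = 0.2), with 6.56, 4.12 and 5.11 FPKM against 6.84, 9.56 and 5.21 FPKM. *Pigp*, a small subunit, had 4.68, 6.54 and 7.18 FPKM against 8.43, 8.49 and 4.97 FPKM, with C3G replicate 3 near the lowest control, and 15.6% of its stretches of 75 bases occur in *Gm9001*. All 5 listed subunits had differences above 0, but 4 did after the GC correction, 3 without control replicate 1 and 2 without replicate 1 in both groups.

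Dolichol-phosphate-mannose synthase supplies the mannoses. *Dpm1*, its catalytic subunit, had 2.83, 1.57 and 1.43 FPKM in control cells and 1.39, 2.85 and 1.95 FPKM in treated cells, with replicate 1 highest in the controls and lowest after C3G. The difference was 0.06 on the log2 scale (95% interval -0.54 to 0.66, limma p = 0.813, exact permutation p = 0.9) and became 0.43 (limma p of 0.0352) without replicate 1 in both groups, where *Dpm1* was called. The small subunits were not called, with *Dpm2* at 0.32 and *Dpm3* at -0.26. Without replicate 1 in both groups they were 0.04 and -0.22, and without control replicate 1 alone, which leaves C3G replicate 1 unpaired, they were 0.14 and 0.00. *Dpm2* had 4.29, 6.47 and 6.97 FPKM against 8.73, 7.24 and 6.67 FPKM, overlapping between C3G replicate 3 and the controls. *Dpm3* was highest in the replicate 1 libraries, at 52.3 and 41.4 FPKM, and lay at 24.9 to 32.7 FPKM in the others (27.6 and 32.7 in control cells, 24.9 and 26.4 in treated cells). It was thus lower with C3G in each of the 3 pairs, with an unadjusted limma p of 0.0857 under the replicate block. With the GC correction and the block the *Dpm3* difference was -0.25 (unadjusted limma p of 0.0454, adjusted p = 0.785), and it missed the call on fold change. Of the *Dpm1* transcript 5.10% of stretches of 75 bases also occur in *Gm20716*, whose exons overlap it.

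In the middle of the pathway, differences not called ranged from -0.09 for *Pigl*, the deacetylase, to 0.60 for *Pigf*, the partner of *Pigo*. *Pigf* had 3.69, 20.2 and 18.02 FPKM in control cells and 16.9, 19.3 and 17.2 FPKM after C3G. Apart from control replicate 1, its 5 values lay within 16.9 to 20.2 FPKM, and without that library its difference was -0.10. The 4 ethanolamine phosphate transferase genes all had differences above 0, but 2 of them did without replicate 1 in both groups and 1 without control replicate 1 alone. *Pign*, which puts ethanolamine phosphate on the first mannose, showed the same form at 1.46, 7.57 and 6.74 FPKM against 5.40, 5.89 and 8.14 FPKM. So did *Pigw*, the inositol acyltransferase, at 0.412, 2.63 and 1.86 FPKM against 1.71, 2.73 and 2.08 FPKM. *Pigg*, the ethanolamine phosphate transferase for the second mannose, had 2.13, 5.51 and 5.16 FPKM against 4.15, 6.31 and 5.68 FPKM. Both *Pigw* and *Pigg* were higher with C3G in each pair of same-numbered libraries, and without replicate 1 in both groups the *Pigg* difference was 0.14 (unadjusted limma p of 0.202). The mannosyltransferase genes *Pigm*, *Pigx* and *Pigv* had differences of 0.01, 0.11 and -0.04. *Pigm*, which adds the first mannose, ran from 3.22 to 5.70 FPKM in control cells and from 4.05 to 5.05 FPKM in treated cells. *Pigx*, its stabilizing partner, ran from 2.44 to 2.87 FPKM and from 2.80 to 3.19 FPKM. *Pigv*, which adds the second, ran from 2.99 to 4.03 FPKM and from 2.53 to 4.20 FPKM. All 3 overlapped between groups, as did *Pigl*, at 3.38 to 4.87 FPKM in control and 3.29 to 4.31 FPKM in treated cells.

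The other 4 transamidase subunits were not called, with differences from -0.04 (*Gpaa1* and *Pigs*) to 0.12 (*Pigt*). For *Pigs* the 95% interval was -0.59 to 0.51, and its levels were 67.6, 40.3 and 44.0 FPKM in control cells and 54.9, 44.5 and 44.8 FPKM in treated cells. *Pigu* had 2.47 to 3.72 FPKM in control cells and 3.51 to 3.66 FPKM in treated cells. *Gpaa1* ran from 10.02 to 16.9 FPKM in control cells and from 10.2 to 15.2 FPKM in treated cells, and *Pigt* from 19.2 to 23.6 FPKM and from 19.3 to 29.7 FPKM. The groups overlapped in each of these 4 genes. Whether *Pigk* differed from its partner subunits in response was not tested. Among remodelling genes, *Pgap1*, the inositol deacylase, had 0.121, 1.23 and 1.38 FPKM in control cells and 0.792, 0.972 and 1.33 FPKM in treated cells (difference 0.16, 95% interval -0.56 to 0.87). Without control replicate 1 the *Pgap1* difference was -0.19, and with the GC correction it was -0.10. *Mppe1*, which removes an ethanolamine phosphate, and *Pgap2* had differences of -0.07 and 0.06. *Pgap2*, which completes the fatty acid exchange that *Pgap3* begins, lay between 5.27 and 6.54 FPKM in all 6 libraries, but 24.8% of its stretches of 75 bases also occur in *AC139579.1*, whose exons overlap it on the same strand. *Mppe1* lay between 2.35 and 3.62 FPKM.

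Of the anchored proteins, *Ly6a* encodes Sca-1, a stem and progenitor cell antigen. Its values were 13.7, 23.5 and 33.7 FPKM in control cells and 22.7, 34.1 and 20.8 FPKM in treated cells. The treated values fell inside the control range except in C3G replicate 2, which lay just above it. The difference of 0.18 (95% interval -0.65 to 1.00, limma p = 0.622, exact permutation p = 0.8) was smaller than the spread between replicates, and its direction changed in 3 of 15 alternatives. The study lists *Ly6a* among its upregulated genes and reports a significant difference by quantitative PCR. In these values *Ly6a* was not called, and the reason for the disagreement was not tested. *Ly6c1* had 3.03, 5.31 and 5.204 FPKM against 5.64, 5.89 and 4.71 FPKM, a difference of 0.24 (95% interval -0.29 to 0.77, limma p = 0.313, exact permutation p = 0.4) that became 0.03 without control replicate 1. The 3 listed Ly6 genes lie together on chromosome 15 of GRCm38 (*Ly6e* from 74955051 to 74959905, *Ly6a* from 74994877 to 74998031 and *Ly6c1* from 75044018 to 75048830). *Ly6a* and *Ly6c1* share sequence, since 23.25% of the stretches of 75 bases in the *Ly6c1* transcript also occur in *Ly6a* or *Ly6c2*, against 2.38% of those of *Ly6a* in *Ly6c1* or *Ly6i*, so the level of *Ly6c1* in particular is uncertain. Differences were above 0 in all 3, but in 2 of the 3 without control replicate 1, without C3G replicate 2 or without replicate 1 in both groups.

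No glypican, a family that carries heparan sulfate chains, was called. *Gpc1* had 75.02, 50.4 and 48.8 FPKM in control cells and 52.2, 51.2 and 47.6 FPKM in treated cells, where only control replicate 1 stood out. Its log2 difference was -0.18 (95% interval -0.66 to 0.31, limma p = 0.418, exact permutation p = 0.7), and without control replicate 1 it was 0.02. *Gpc4* had 19.6, 25.7 and 23.9 FPKM against 25.4, 25.8 and 25.5 FPKM, and *Gpc6* had 17.96, 8.57 and 10.1 FPKM against 10.8, 8.42 and 11.3 FPKM. The most abundant member, *Prnp*, had 80.5, 131 and 130 FPKM in control cells and 149, 145 and 131 FPKM in treated cells (difference 0.34, 95% interval -0.20 to 0.89, limma p = 0.178, exact permutation p = 0.2). Without control replicate 1 this was 0.12. *Plaur*, the urokinase receptor, had 3.27, 6.13 and 3.60 FPKM against 3.78, 4.92 and 3.19 FPKM, a difference of -0.08.

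Taking the 35 genes together, the median difference was 0.16 on the log2 scale and 26 of the 35 (74.3%) were above 0, where over all genes the median was 0.06 and 62.0% were above 0. Without replicate 1 in both groups the median of the members was 0.00 and 18 of the 35 (51.4%) were above 0, against -0.01 and 45.0% over all genes. *Pigc*, *Pigk* and *Pigb* were called there as before, beside *Dpm1*, where 0.783% of all genes were called higher, and nothing is read from that count, which rests on the same *Pigb*, *Pigc* and *Pigk*. Within pairs of same-numbered libraries, 10 members (28.6%) were higher with C3G in all 3, against 14.2% of all genes. These were *Pigc*, *Pigq*, *Pigw*, *Pigb*, *Pigo*, *Pigg*, *Pigk*, *Pgap3*, *Gpc4* and *Prnp*. Lower in all 3 were *Dpm3*, *Pigl* and *Mppe1* (8.57%), against 11.6% of all genes. The count of 10 and that of 26 above 0 are descriptions only. Both hold *Pigb*, listed through its treated group, and *Pigc* and *Pigk*, which the study singled out in these samples. Control replicate 1 was the lowest of the 6 libraries in 20 members (57.1%, against 50.4% of all genes) and the highest in 7, against 28.6% of all genes. It lay more than 0.5 below the mean of control replicates 2 and 3 on the log2 scale in 13 members and more than 0.5 above it in 6. Of 11211 genes with a GC content, it lay that far below in 3936 and that far above in 1977. Across the 35 members this departure had a Spearman rho of 0.529 with transcript GC content, as a description over genes that share those libraries. In the 17 members of lower GC content (39.3% to 48.9%) the median departure was -0.61, and the median difference between groups was 0.20. In the 18 others (49.1% to 59.9%) these medians were -0.02 and 0.12. The part of GC content in the differences between groups was not tested beyond the corrected fits, in which *Pigc*, *Pigb* and *Pigk* were called without the replicate block, and *Pigc* and *Pigb* with it.

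**Figure D5:**
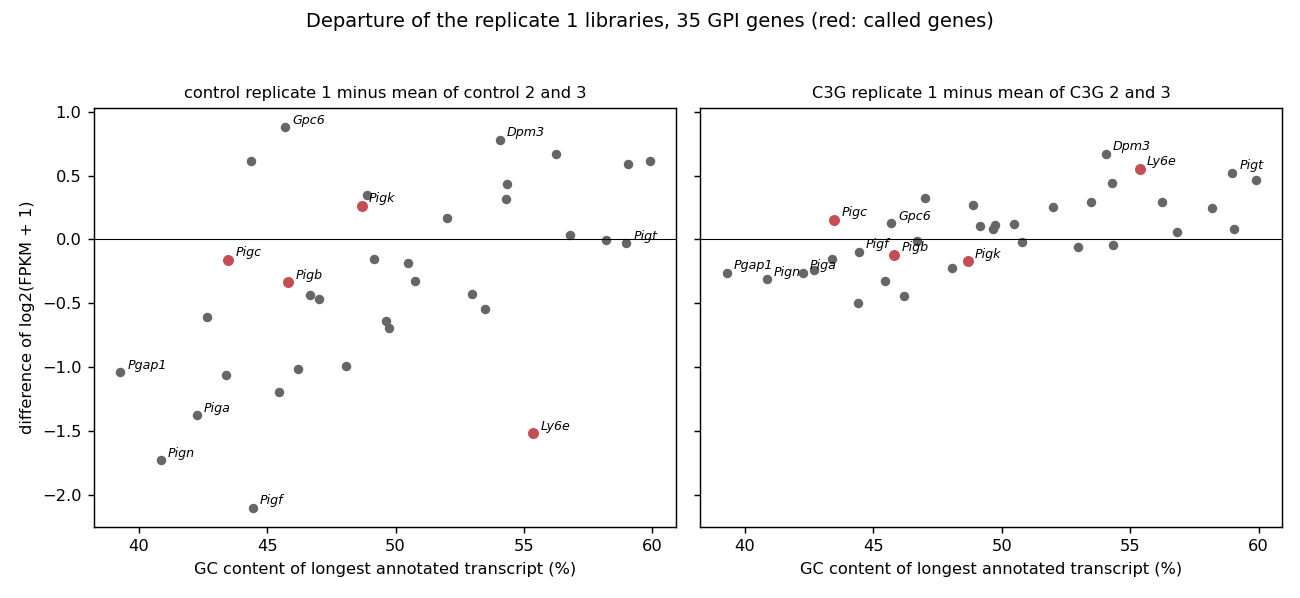
Departure of replicate 1 from the mean of replicates 2 and 3 (y axis, difference of log2(FPKM + 1)) against GC content of the longest annotated transcript (x axis, percent) for the 35 genes, in control cells (left) and C3G-treated cells (right), with called genes in red. In control cells the departures run from -2.098 (*Pigf*) to 0.88 (*Gpc6*), and in treated cells from -0.50 to 0.67.

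Other genes of the pathway were counted from lists written with earlier results known. Of 28 genes for accessory steps, export of anchored proteins from the endoplasmic reticulum and supply of dolichol-linked mannose, 24 are listed and 0 were called by limma, with 0 at an unadjusted p under 0.05, beside 0.65% of all genes called in either direction. The most abundant of these were *Tmed2* and *Tmed10*, cargo receptors of the p24 family that carry anchored proteins, and *Pigyl*, a homologue of a transferase subunit. *Tmed2* had 36.7, 96.5 and 88.9 FPKM in control cells and 86.0, 102 and 86.4 FPKM in treated cells. *Tmed10* had 15.7, 39.5 and 42.2 FPKM against 46.3, 42.0 and 40.7 FPKM. In both p24 genes only control replicate 1 stood apart. *Pigyl* was highest in the replicate 1 libraries, with 42.6, 27.2 and 29.0 FPKM against 41.8, 30.3 and 27.9 FPKM. Of 68 further anchored proteins 24 are listed and again 0 were called by limma, with 0 at an unadjusted p under 0.05. With the replicate block *Cd48*, a leukocyte surface protein, was called higher, with a difference of 0.47 (unadjusted limma p of 0.00946, adjusted p = 0.794). It had 0, 0.620 and 0.187 FPKM in control cells and 0.537, 0.989 and 0.656 FPKM in treated cells, higher with C3G in each of the 3 pairs, and it too is listed only through its treated group (control mean 0.269 FPKM). Their most abundant gene was *Gas1*, a receptor component of hedgehog signaling, at 187 to 566 FPKM in control cells and 192 to 300 FPKM in treated cells, followed by *Cd109* at 12.003 to 33.7 FPKM and 19.6 to 31.4 FPKM. *Efna5*, a ligand of Eph receptors, was next at 7.79 to 15.9 FPKM and 10.5 to 16.2 FPKM. The median difference was 0.06 in the pathway list and 0.11 in the list of anchored proteins, beside 0.06 over all genes.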

How the data were processed

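Stranded RNA libraries of 6 samples were sequenced. The authors checked reads with FastQC 0.11.8 and computed the deposited FPKM values with Ballgown. The submitters' processing notes also name cutadapt, HISAT2 2.1.0, StringTie and STAR 2.5.2b, with no roles, and the human build hg19, although the identifiers are those of mouse genes. No scaling between libraries is stated, and every listed gene has a mean of at least 0.50 FPKM in 1 group or more. Symbols were found for 11211 of 11234 identifiers. Positions, GC content and shared stretches of 75 bases come from GENCODE M21 (GRCm38), whose versioned identifiers match for 9812 genes.

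Groups and replicate numbers follow the sample titles. Values were fitted as log2(FPKM + 1) over all genes with limma 3.58.1 (eBayes with trend, group only) in R 4.3.3, beside a two-sided exact permutation test over samples (Python 3.11.15, scipy 1.17.1). The titles name no pairs. Departures from the group means of same-numbered libraries correlated at 0.653, 0.580 and 0.440 across genes (-0.640 to 0.307 for others), so the numbers were taken as pairs for the block. The pairs thus rest on the same values that the block then tests. Control replicate 2 with C3G replicate 3 gave 0.307 and control replicate 3 with C3G replicate 2 gave 0.300, so the pairing of these is less clear than that of replicate 1. Only the fit on group alone was run on simulated data, whose noise was independent and not linked to GC content or replicate number. The alternatives were not simulated, and nothing is read from that run. The 15 alternatives were a pseudocount of 0.1, a mean FPKM of at least 1, no trend, quantile normalization, median centring, a GC correction (spline, 5 degrees of freedom), the block, both of these, leaving out each of 6 libraries, and leaving out replicate 1 in both groups. All members were eligible to be named, of other lists those called and the 3 most abundant, and other named markers were chosen after their values were seen. Members and lists were chosen with earlier results of these data known.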

Additional observations from a re-analysis of the deposited data

How the results depend on the processing

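The number of genes called by limma was 73 as reported (45 higher and 28 lower), 135 with the GC correction (67 and 68), 169 with the replicate block, 246 with both, 191 without replicate 1 in both groups, and 40 to 144 with single libraries left out (144 without control replicate 1, 127 without control replicate 2, 45, 40 and 43 without C3G replicates 1, 2 and 3). Quantile normalization gave 30 higher and 30 lower. Members called numbered 4 as reported, 2 with the filter on mean FPKM, 2 with the GC correction and the block, and 1 to 3 with single libraries left out, the 1 being *Pigc*, without C3G replicate 2 or C3G replicate 3, and 2 being left without control replicate 3. Over all genes the share called in either direction was 0.65% as reported and 0.516% of 10464 genes with the filter. It was 2.19% with the GC correction and the block, and 0.356% to 1.28% with single libraries left out. Apart from *Ly6e* and, with the GC correction as well, *Pigk*, the pairing by replicate block changed no member's call. Members without overlap numbered 5 as reported, 3 each under the GC correction, quantile normalization and median centring, 11 without replicate 1 in both groups and 6 to 10 with single libraries left out, where a smaller group overlaps less by construction. Over all genes the share without overlap in either direction was 24.2% without replicate 1 in both groups, 8.82% to 14% with single libraries left out, 6.62% under the GC correction, 3.96% with quantile normalization and 3.72% with median centring. In the other pathway and anchored lists, 0 were called as reported, 1 with median centring and 1 with the replicate block (*Cd48* in both), 2 with the GC correction and the block (*Hyal2* higher, *Nrn1* lower), 1 without replicate 1 in both groups (*Hyal2*) and 0 to 2 with single libraries left out. Differences of *Pigc*, *Pigk*, *Pigb*, *Pigo*, *Pgap3* and *Ly6e* kept their direction in every alternative run. The causes of the other changes were not tested. Unknown depth means that no counting error can be given for genes near 1 FPKM, such as *Pigb*.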
